A study of Mus musculus with 6 samples.

Results

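Genes of the proteasome were compared between 2 groups of hypertrophic mouse hearts. The genes were taken by symbol and biotype: protein-coding rows whose symbol starts with Psm, a letter from a to g, and a digit. The rule found 50 genes of 54532 in the deposited table. RNA came from myocardium of wild type C57BL/6 mice of 18 weeks, and every heart had been given AAV9, an adeno-associated virus that reaches the heart well. In the 3 controls the virus carried EGFP (AAV9-EGFP). In the other 3 it carried tough decoys against miR-199a (AAV9-anti-miR-199a-TuDs, here TuD), RNA hairpins that sequester a microRNA. The labels give neither the sex of the animals, the cause of the hypertrophy, the viral dose, nor the promoter or cell type that drives the decoys. They also do not say whether each library is a separate animal, so p-values measure the spread between these samples, which may be technical.

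The proteasome is the protease that degrades most short-lived and damaged proteins after they are tagged with ubiquitin. Its barrel-shaped core has outer rings of alpha subunits, which form the gate, and inner rings of beta subunits, 3 of which cut peptides. A regulatory particle caps the barrel: its base holds a ring of 6 ATPases that unfold the substrate, and its lid removes ubiquitin. Immune cells, and other cells under interferon, can exchange the catalytic beta subunits for the immunoproteasome forms. In the heart, proteasome activity is needed for the turnover of sarcomere proteins, and it is known to change in hypertrophy and heart failure.

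The decoys target miR-199a, and the 2 mature arms are shown because their seeds define which transcripts could be direct targets. The sequences are from RefSeq, 5′ to 3′, with the seed (bases 2 to 8) in capitals, and the arms share no seed.
miR-199a-3p: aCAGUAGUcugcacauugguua
miR-199a-5p: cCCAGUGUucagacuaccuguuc

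A seed match of at least 7 bases to either arm was present in the longest annotated 3′ UTR of 9 of the 48 proteasome genes that could be tested (18.75%), against 31.7% of 9545 tested genes with an annotated 3′ UTR. The proteasome 3′ UTRs were shorter, with a median of 282 bases against 1102. Of the 20 proteasome genes that rose in the TuD group (below), 2 held a match, Psma3 and Psma1. These sites and that of Psmd12 are shown as the members with the longest match or with a match and a rise. They are read from the GENCODE M21 annotation of GRCm38, with the match in capitals and 10 bases on either side.
Psma3, full match to the miR-199a-3p seed with a following A: ttctgtaaccACTACTGAgaacagcgag
Psma1, match to the miR-199a-5p seed: gcagggacatACACTGGcgacaataat
Psmd12, full match to the miR-199a-5p seed with a following A: ggtagtccacACACTGGAgaagctaaca
Psmd12, a lid subunit, had a log2 fold change of +0.09 and did not pass the test. Over the 9 genes with a match the median log2 fold change was +0.27, and over the members without one it was +0.35. A match is a description of these letters and not a measured binding site.

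Nfe2l1 is the transcription factor that raises proteasome genes when proteasome capacity falls short, through antioxidant response elements. The core of that element, TGACNNNGC on either strand, was searched from 250 bases before to 50 after the annotated start in RefSeq promoters (GRCm38.p6), where 41 tested members had an entry. It was present in 6 of them (14.6%), against 17.5% of 7731 tested genes. The 3 members that rose and hold it are shown, with the element in capitals and the part of the promoter around it, 5′ to 3′ on the strand of the gene.
Psmb5 (chr14:54617996-54618102, minus strand, element from position -47): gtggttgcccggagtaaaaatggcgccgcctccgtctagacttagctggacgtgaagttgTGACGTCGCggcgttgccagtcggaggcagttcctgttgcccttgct
Psmb6 (chr11:70525288-70525356, plus strand, element from position -9): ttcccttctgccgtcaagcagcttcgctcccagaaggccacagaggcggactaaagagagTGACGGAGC
Psmc6 (chr14:45329574-45329665, plus strand, element on the other strand from position -227): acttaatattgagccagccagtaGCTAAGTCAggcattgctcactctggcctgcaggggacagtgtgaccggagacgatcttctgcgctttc
The CCAAT box was present in 34.1% of these members against 42.4% of the tested genes, and GCGCATGC, the core of the site of the factor NRF1, in 7.32% against 6.23%. Of 18 members that rose and had a promoter entry, 3, 8 and 2 held TGACNNNGC, CCAAT and GCGCATGC. Psmd9, Psme4 and Psmd12, which did not pass, also hold TGACNNNGC. A window without a motif says only that these letters are not in it.

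Each library held 15.2 to 18.2 M (megareads) of reads recovered from the deposited FPKM (fragments per kilobase of gene and megaread), with the TuD libraries at 15.2 to 16.7 M and the controls at 18.0 to 18.2 M. Cardiomyocyte markers were abundant in every library: Myh6, the alpha myosin heavy chain, had a mean of 3891 normalised FPKM in control hearts and 4019 in TuD hearts. The summed level of 6 cardiomyocyte markers ranged from 23266 to 24418 in control libraries and from 24671 to 30937 in TuD libraries. Of the 6, 3 (Myl2, Tnni3 and Tnnt2) rose, where 15.0% of all tested genes did. Myh6, Actc1 and Ryr2 did not pass (+0.05, -0.21 and -0.28). The mean of Myl2 went from 4885 to 8393, while that of Actc1 went from 11192 to 9792. Transcripts of Y-linked genes were present in the controls (summed FPKM of 8.32 to 9.59) and in TuD replicate 3 (12.5), and near 0 in TuD replicates 1 (0.0254) and 2 (0.00711). Sex, read from these transcripts, was thus partly confounded with group. A difference between the groups cannot be fully told apart from a difference of sex. Of other markers, the summed level of 2 erythroid genes was 937 to 1275 in control and 1100 to 2730 in TuD libraries, with Hba-a1 higher, and that of 3 smooth muscle and pericyte genes was 109 to 154 and 113 to 225, with Rgs5 higher. The sum of 5 fibroblast genes was 103 to 114 in control libraries and 103, 124 and 156 in TuD replicates 1, 2 and 3, with Tcf21 higher (+0.48, adjusted p = 0.0138) and Col1a2 lower (-0.72, adjusted p = 0.0133). The part of these cells in the proteasome values was not tested. In whole tissue, more cells of a type and more RNA per cell cannot be told apart.

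Proteasome genes were more often higher than lower in the TuD group. Of the 50 genes, 48 passed the filter (deposited FPKM no lower than 1 in at least 3 libraries). Psmb11, the thymus-specific beta subunit, was listed at 0 in every library, and Psma8, the testis-specific alpha subunit, reached at most 0.329 normalised FPKM. In a limma fit over all 10460 tested genes (Benjamini-Hochberg adjustment), 20 members rose (adjusted p under 0.05), where 15.0% of all tested genes did, and 2 fell, where 14.3% of all tested genes did. The remaining 26 did not pass. The median log2 fold change (TuD minus control, on log2 of normalised FPKM plus 0.5) was +0.31 over the members and +0.01 over all tested genes. In 31 members all TuD libraries lay above all controls, against 23.5% of all tested genes, and in 3 members all lay below, against 24.4%.

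**Figure D1:**
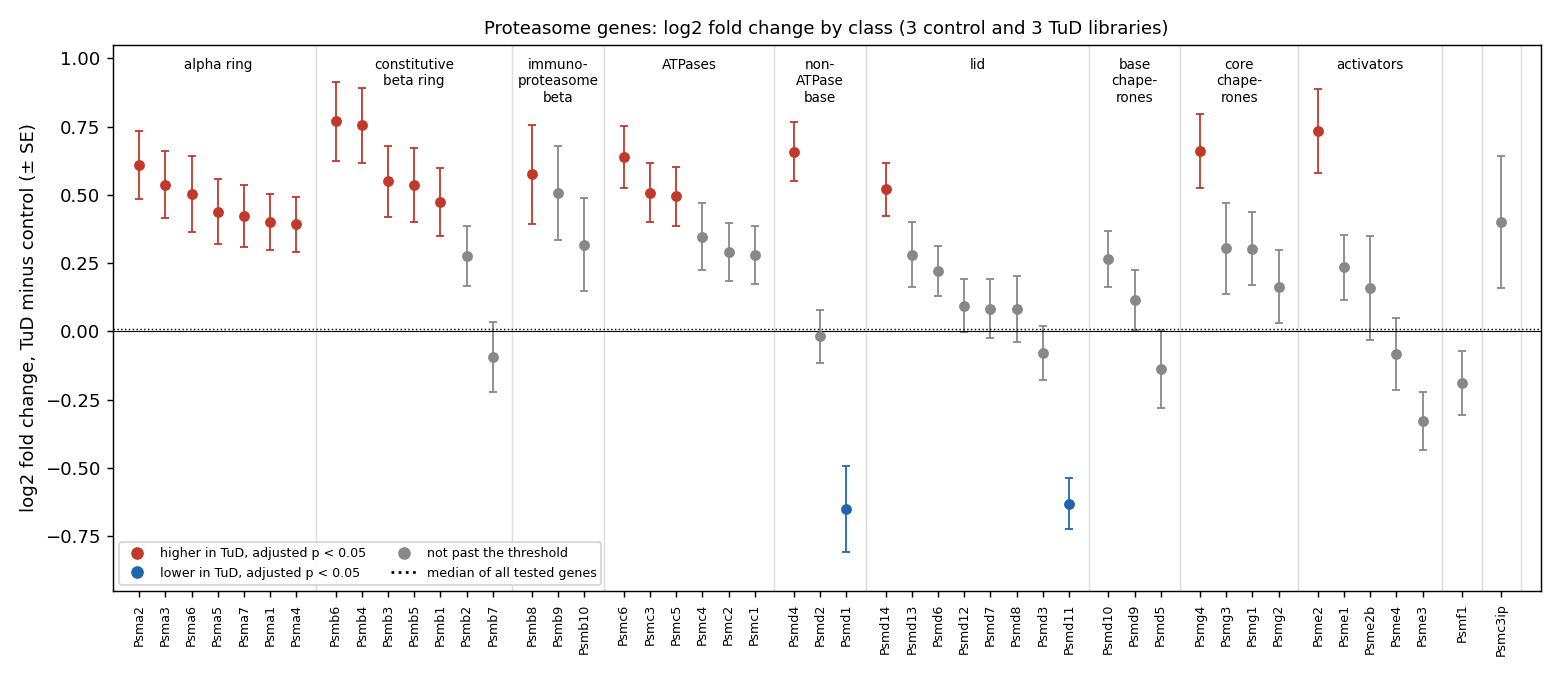
Log2 fold change (TuD minus control, vertical axis, ± SE) of the 48 tested proteasome genes, grouped by class and ordered within it; red points rose, blue points fell and grey points did not pass an adjusted p of 0.05, and the dotted line is the median of all tested genes. The last 2 columns are the inhibitor Psmf1 and Psmc3ip. All 7 tested alpha subunits are red, while 1 of 8 lid genes is red and 1 blue; after rescaling to TPM no member was called higher.

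These counts depend on scale and on single libraries. Rescaling to TPM, which gives every library the same sum, lowered the median of all tested genes to -0.36 and that of the members to -0.05, with 0 members higher and 8 lower; relative to the median of all genes the members stood +0.30 both ways. With 1 library left out, 12, 10 and 12 members were higher in the absence of control replicates 1, 2 and 3, and 17, 16 and 23 in the absence of TuD replicates 1, 2 and 3. In the same fits 1 member was lower without any 1 control or without TuD replicate 1, 2 without TuD replicate 2 and 3 without TuD replicate 3. Of the 22 called members 10 kept their call in all 6 of these fits: Psma2, Psmb4, Psmb6, Psmc3, Psmc6, Psmd4, Psmd14, Psmd11, Psme2 and Psmg4. With the presence of Y-linked transcripts as a covariate, 4 members were higher (Psma3, Psmc3, Psmc6 and Psmd4) and 1 lower (Psmd11); that estimate rests on TuD replicate 3, the 1 TuD library with such transcripts. The median over the members was +0.30 in that fit.

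All 7 tested genes of the alpha ring rose, where 15.0% of all tested genes did. Their median log2 fold change was +0.44 (+0.05 after rescaling to TPM). In all 7 the TuD libraries lay above the controls, against 23.5% of all tested genes. Of the 7, 4 stayed higher after the length correction described below, 1 with the Y-linked covariate and none after rescaling to TPM. Psma2 measured 20.4, 19.9 and 23.0 normalised FPKM in control replicates 1, 2 and 3 (values are given in this order throughout), against 28.7, 37.3 and 31.7 for TuD replicates 1, 2 and 3. It had the highest log2 fold change of the ring (+0.61 ± 0.12, SE, adjusted p = 0.0102), and its groups did not overlap. Psma3 measured 12.6, 10.7 and 11.9 against 14.9, 18.2 and 18.8 (+0.54, adjusted p = 0.0151). Psma1 measured 29.0, 29.7 and 31.3 against 36.8, 43.6 and 39.1 (+0.40, adjusted p = 0.0225). Psma4, whose amino-terminal tail helps close the gate of the barrel, measured 27.0, 23.9 and 25.9 against 35.7, 34.1 and 31.5 (+0.39, adjusted p = 0.0228). In each of these the lowest TuD library lay above the highest control. Psma7 measured 32.2, 34.5 and 36.7 against 41.3, 51.5 and 46.6 (+0.42, adjusted p = 0.0275). The remaining ring members, Psma5 and Psma6, rose by log2 values of +0.44 and +0.50 with adjusted p of 0.0277 and 0.0301, and their groups did not overlap either.

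The call of Psma2 held without each library in turn. Leaving out a control ended those of Psma1 (adjusted p = 0.0689, 0.0757 and 0.0617 without control replicates 1, 2 and 3), Psma5 (0.0762, 0.0883 and 0.0723), Psma6 (0.0945, 0.0784 and 0.0622) and Psma7 (0.0852, 0.0836 and 0.0597). For Psma6 and Psma7 the same held without TuD replicate 2 (0.0578 and 0.0638). Psma3 lost its call without control replicate 2 (0.0605), and Psma4 without either of control replicates 2 (0.0896) and 3 (0.0733), or TuD replicate 1 (0.0754). The log2 fold changes stayed above 0 in all of these fits.

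Of the 7 constitutive beta genes 5 rose, where 15.0% of all tested genes did. The median log2 fold change of the class was +0.54 (+0.15 after rescaling to TPM). The catalytic subunits did not move alike. Psmb6, which carries the caspase-like site (ENSMUSG00000018286, chromosome 11, 70525367 to 70527858 in mm10), measured 78.5, 81.0 and 85.4 normalised FPKM against 125, 173 and 125. Its mean rose from 81.6 ± 3.47 to 141 ± 27.9 (SD, n = 3 per group; log2 fold change +0.77 ± 0.14, SE, adjusted p = 0.00787), the highest value of any member. Psmb5, which carries the chymotrypsin-like site that bortezomib blocks, measured 137, 148 and 150 in the controls and 208, 249 and 180 in the TuD libraries. It was the most abundant proteasome transcript per length, and it rose from 145 ± 6.99 to 212 ± 34.8 (+0.54 ± 0.14, adjusted p = 0.0217). Psmb7, which carries the trypsin-like site, measured 31.5, 33.7 and 34.6 against 26.6, 31.2 and 36.2. It did not pass (-0.09 ± 0.13, adjusted p = 0.607), its groups overlapped, and TuD replicate 3 was the highest of the 6 libraries.

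Within each library, Psmb7 was 40.1%, 41.6% and 40.5% of Psmb6 in the controls and 21.3%, 18.0% and 29.0% in the TuD libraries. This ratio does not depend on how libraries are scaled against each other, and the groups did not overlap. The pair was chosen after its values were seen, so no test is given. Psmb7 and Psmb6 also differ in length (3421 and 1872 bases). Psmb4, a structural beta subunit, measured 83.7, 85.3 and 92.4 against 136, 178 and 131 (+0.75, adjusted p = 0.00707). Psmb3 measured 44.1, 49.2 and 48.8 against 69.3, 81.0 and 59.7 (+0.55, adjusted p = 0.0168). Psmb1 measured 28.7, 34.6 and 34.0 against 40.7, 51.2 and 44.1 (+0.47, adjusted p = 0.0250). In all 3 structural genes the TuD libraries lay above the controls, against 23.5% of all tested genes, with TuD replicate 2 the highest. Psmb2 did not pass (+0.28, adjusted p = 0.0918), although its groups did not overlap.

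Psmb4 and Psmb6 kept their calls without each library in turn. The call of Psmb5 ended in the fits that leave out a control (adjusted p = 0.0681, 0.0650 and 0.0599) and in the fit without TuD replicate 1 (0.0558). Psmb1 lost its call in the fits that leave out a control (0.0781, 0.0542 and 0.0603) and without TuD replicate 2 (0.0607), and Psmb3 without control replicate 1 (0.0557).

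**Figure D2:**
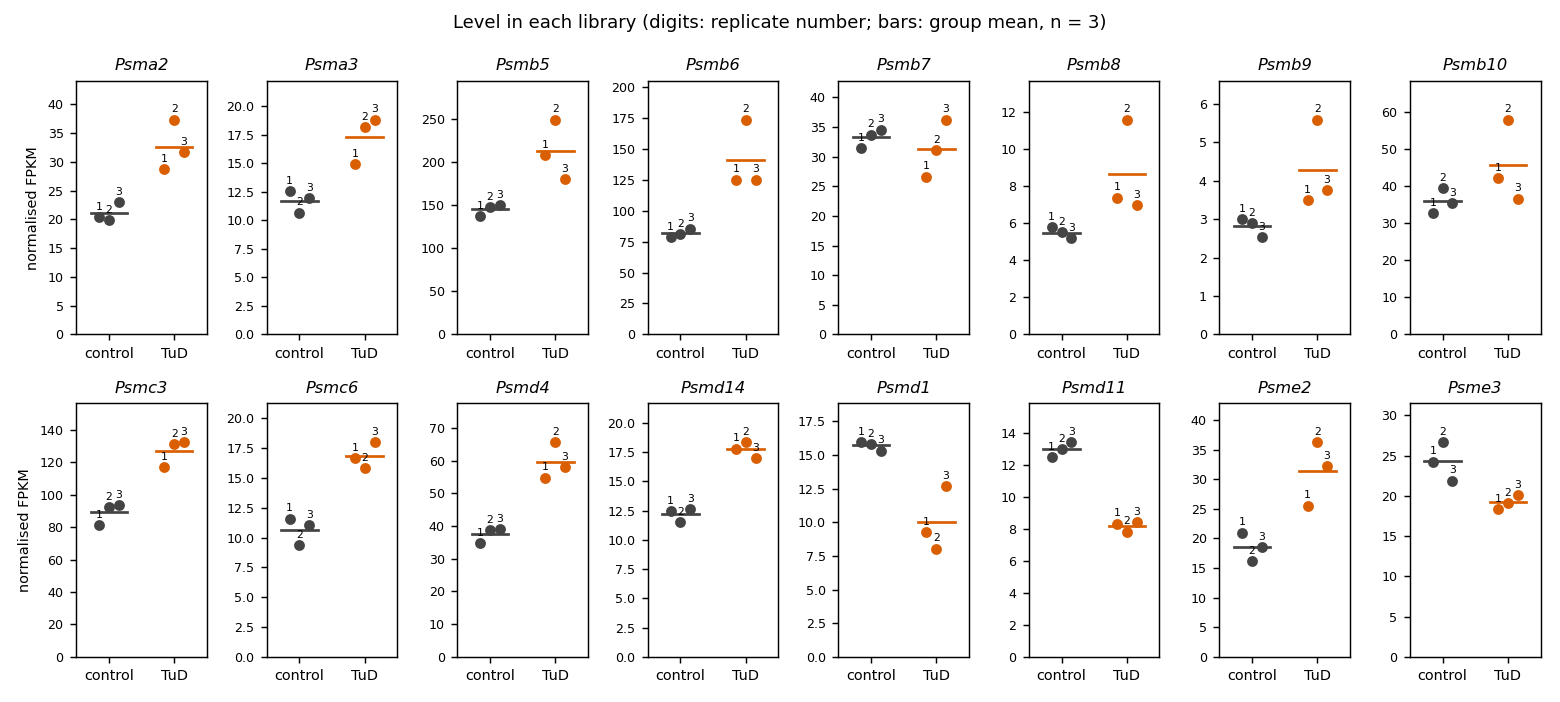
Normalised FPKM (linear axis from 0) of 16 proteasome genes in each library; grey points are controls, orange points are TuD libraries, digits are replicate numbers and bars are group means (n = 3). Psmb6, Psmc3, Psmd4 and Psmd14 separate the groups upwards and Psmd11 downwards, while Psmb7 and Psmb10 overlap.

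Of the immunoproteasome genes, Psmb8 and Psmb9 were low next to the constitutive genes they replace, and Psmb10 was near the level of its counterpart Psmb7 or above it. Psmb8, which replaces Psmb5, measured 5.79, 5.51 and 5.17 normalised FPKM against 7.38, 11.6 and 6.96. It rose at the edge of the threshold (+0.58 ± 0.18, SE, adjusted p = 0.0458), with TuD replicate 2 well above the others. Psmb9, which replaces Psmb6, measured 3.01, 2.91 and 2.53 against 3.49, 5.59 and 3.76, and did not pass (+0.51, adjusted p = 0.0578). Psmb10, which replaces Psmb7, measured 32.8, 39.6 and 35.5 against 42.3, 58.0 and 36.7, and its groups overlapped (+0.32, adjusted p = 0.187). The class thus had 1 of 3 tested members higher, where 15.0% of all tested genes were, and a median of +0.51 (+0.18 after rescaling to TPM).

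As a share of its constitutive counterpart, Psmb8 was 4.22%, 3.73% and 3.44% of Psmb5 in the controls and 3.55%, 4.64% and 3.87% in the TuD libraries, so the groups overlapped. Psmb9 was 3.84%, 3.58% and 2.96% of Psmb6 against 2.79%, 3.23% and 3.01%, which also overlapped. Psmb10 was 104%, 117% and 103% of Psmb7 against 159%, 186% and 101%, with TuD replicate 3 just below the controls and the other TuD libraries above them. The call of Psmb8 held without TuD replicate 3 (adjusted p = 0.0222). It ended when any other library was left out (0.0845, 0.112 and 0.124 for control replicates 1, 2 and 3; 0.0588 and 0.0596 for TuD replicates 1 and 2). It also ended with FPKM as deposited or with size factors from all genes above 0 (0.0510 in both).

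Leukocytes carry immunoproteasomes, and 7 leukocyte and macrophage markers were measured. The macrophage markers Csf1r (6.84 to 14.6 normalised FPKM over the libraries), Cd68 (5.61 to 15.6) and Adgre1 (1.28 to 4.51) overlapped the levels of Psmb8 or Psmb9. The other 4 were under 1 in every library: Ptprc, the general leukocyte marker, was at most 0.391 and the T cell marker Cd3e at most 0.116, and Cd3e was listed at 0 in TuD replicate 1. The summed level was 18.0 to 21.2 in the controls and 15.5, 22.2 and 36.1 in TuD replicates 1, 2 and 3; 3 of the 7 were tested and none passed. The highest leukocyte sum was in TuD replicate 3, and the highest Psmb8, Psmb9 and Psmb10 were in TuD replicate 2. The part of such cells in these values was not tested. Of the 6 tested inducers and partners of the immunoproteasome 2 rose, B2m among them, and none fell, where 15.0% and 14.3% of all tested genes did. B2m, the light chain of MHC class I, measured 322, 303 and 358 against 383, 527 and 610 (+0.60, adjusted p = 0.0362). Irf1, Tap1, Tap2 and Tapbp, which act in the interferon response and in peptide loading, lay between -0.07 and +0.07 and did not pass. The call of B2m ended after the length correction described below (+0.18, adjusted p = 0.477), after rescaling to TPM (+0.22, 0.414) and without every library but TuD replicate 1 (0.0662 to 0.119).

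Of the 6 ATPases of the base 3 rose and none fell, where 15.0% and 14.3% of all tested genes did. In all 6 the TuD libraries lay above the controls, against 23.5% of all tested genes. The median log2 fold change was +0.42 (+0.04 after rescaling to TPM). Psmc3 measured 81.2, 92.4 and 93.6 normalised FPKM against 117, 131 and 132 (+0.51 ± 0.11, SE, adjusted p = 0.0119). Psmc6 measured 11.6, 9.35 and 11.1 against 16.7, 15.8 and 18.0 (+0.64 ± 0.12, adjusted p = 0.00691). Psmc5 measured 85.8, 87.4 and 89.9 against 118, 139 and 116 (+0.50 ± 0.11, adjusted p = 0.0129). Each TuD library stood above every control for all 3 ATPase genes, which encode subunits of the same unfolding ring. Psmc4 measured 40.8, 43.6 and 43.5 against 55.0, 62.6 and 46.6 (+0.35, adjusted p = 0.0666), and Psmc2 measured 20.3, 21.2 and 23.8 against 25.7, 29.0 and 25.7 (+0.29, adjusted p = 0.0719). Psmc1, the sixth, had a log2 fold change of +0.28 and an adjusted p of 0.0798. Psmc3 and Psmc6 kept their calls without each library in turn, and Psmc5 missed the threshold without control replicate 2 (0.0501). Quantile normalization ended the call of Psmc3 (+0.28, 0.0639). Without TuD replicate 3 Psmc4 passed (adjusted p = 0.0170).

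Of the 11 non-ATPase genes of the base and lid 2 rose, 2 fell and 7 did not pass. These counts are near the shares of all tested genes that rose (15.0%) and fell (14.3%), and the class median was +0.08 (-0.30 after rescaling to TPM). Among the 3 genes of the base, Psmd4, a ubiquitin receptor, measured 34.8, 38.7 and 39.0 normalised FPKM against 54.8, 65.7 and 58.1. It rose from 37.5 ± 2.34 to 59.5 ± 5.57 (SD, n = 3 per group; +0.66 ± 0.11, SE, adjusted p = 0.00560). Psmd1, a large scaffold subunit (ENSMUSG00000026229, chromosome 1, 86064387 to 86139151 in mm10), measured 16.0, 15.8 and 15.3 against 9.29, 8.04 and 12.7. Its mean fell by 36.3%, with a log2 fold change of -0.65 ± 0.16 (adjusted p = 0.0188). Psmd2, the other large scaffold subunit, did not pass (-0.02, adjusted p = 0.904), with means of 66.3 ± 2.31 and 65.5 ± 3.61. Within each library Psmd1 was 24.9%, 24.1% and 22.3% of Psmd2 in the controls and 15.2%, 11.9% and 18.7% in the TuD libraries. Psmd1 is the base member that fell, so the separation of this ratio follows from that choice. The genes also differ in length (7265 bases for Psmd1 and 4038 for Psmd2).

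The call of Psmd1 was fragile. It ended when control replicate 1, 2 or 3 was left out (adjusted p = 0.0536, 0.0609 and 0.0515), when TuD replicate 1 was (0.0582) and under the Y-linked covariate (-0.30, adjusted p = 0.179). TuD replicate 3, the library with Y-linked transcripts, was the nearest of the TuD libraries to the controls. Psmd4 kept its call without each library in turn and with that covariate (+0.63, adjusted p = 0.0419).

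Among the 8 lid genes that the symbol rule takes, 1 rose, 1 fell and 6 missed the threshold, again near those shares. Their median was +0.09 (-0.30 after rescaling to TPM). Sem1, a lid subunit outside the symbol rule, is not counted here and rose (+0.89, adjusted p = 0.00435). Psmd14, the metalloprotease that cuts ubiquitin chains off the substrate, measured 12.5, 11.5 and 12.7 normalised FPKM against 17.8, 18.4 and 17.0 (+0.52 ± 0.10, SE, adjusted p = 0.00740). Psmd11, a scaffold subunit that joins lid, ATPases and core (ENSMUSG00000017428, chromosome 11, 80428615 to 80473248 in mm10), measured 12.5, 13.0 and 13.5 against 8.35, 7.84 and 8.45. It had the lowest p-value of all members and fell (-0.63 ± 0.09, adjusted p = 0.00418). The highest TuD library stood well under the lowest control. Within each library Psmd11 was 100.4%, 113% and 106% of Psmd14 in the controls and 46.9%, 42.7% and 49.7% in the TuD libraries. These are the lid members that fell and rose, so the separation of their ratio follows from that choice. Psmd11 and Psmd14 also differ in length (6383 and 2820 bases). Both kept their calls without each library in turn. The other 6 lid genes (Psmd3, Psmd6, Psmd7, Psmd8, Psmd12 and Psmd13) had log2 fold changes from -0.08 to +0.28.

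Core and lid were also set against each other within each library, where scaling between libraries cancels. The geometric mean of the 14 tested core genes was 1.65, 1.59 and 1.68 times that of the 8 lid genes in the controls, and 2.10, 2.39 and 2.03 times in the TuD libraries. The core mean was 42.6, 44.0 and 46.4 normalised FPKM against 57.1, 69.6 and 58.7, and the lid mean was 25.9, 27.6 and 27.7 against 27.1, 29.1 and 29.0. The core means did not overlap and the lid means did. The lid mean leaves out Sem1, a lid subunit outside the symbol rule that rose (+0.89). The ATPase mean was 40.2, 40.3 and 43.1 against 53.3, 58.5 and 55.1, also without overlap. These classes were compared with their results known, so the difference between them is given as a description.

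**Figure D3:**
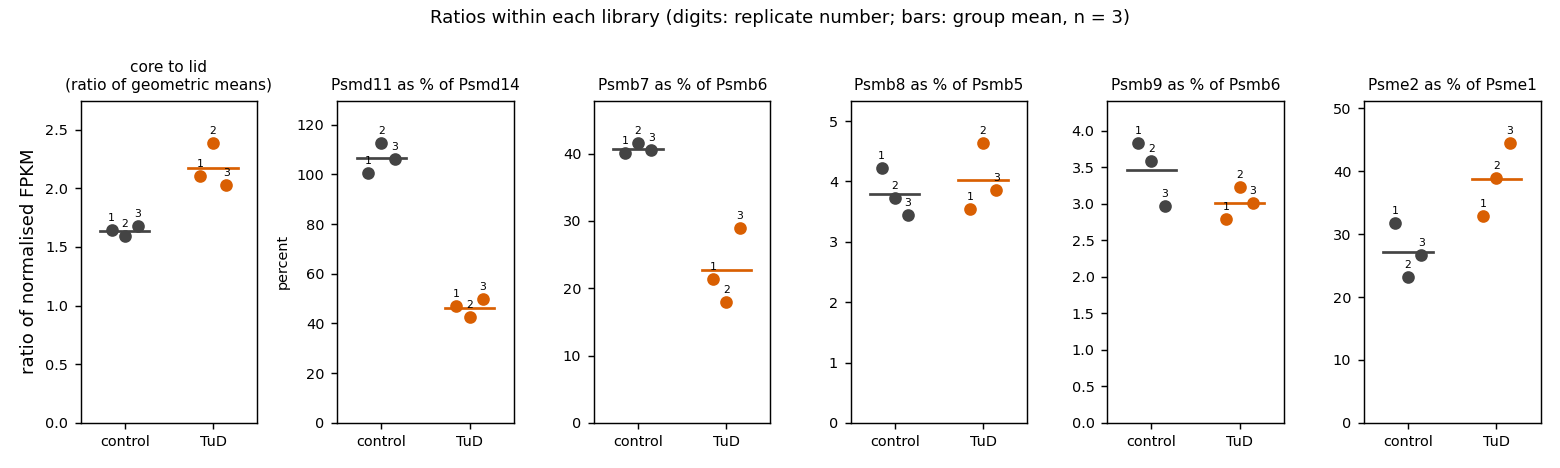
Ratios of normalised FPKM within each library (the first panel is a ratio of geometric means, the others are percentages; all axes start at 0); grey points are controls, orange points are TuD libraries, digits are replicate numbers and bars are group means (n = 3). The ratio of core to lid (without Sem1) is 1.59 to 1.68 in the controls and 2.03 to 2.39 in the TuD libraries. The groups also stay apart for Psmd11 of Psmd14, Psmb7 of Psmb6 and Psme2 of Psme1, but overlap for Psmb8 of Psmb5 and Psmb9 of Psmb6. The ratios were chosen after their values were seen, and Psmd11 and Psmd14 are the lid members that fell and rose. Psme2 can share reads with its copy Psme2b.

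Of the 5 activator genes, which cap the core in place of the regulatory particle, 1 rose and none fell, where 15.0% and 14.3% of all tested genes did. The class median was +0.16 (-0.22 after rescaling to TPM). Psme2, the beta chain of the interferon-inducible activator, measured 21.0, 16.2 and 18.5 normalised FPKM against 25.5, 36.3 and 32.3 (+0.73 ± 0.15, SE, adjusted p = 0.0110), and kept its call without each library in turn. Psme1, the alpha chain of the same ring, measured 66.0, 69.8 and 69.5 against 77.5, 93.3 and 72.4 and did not pass (+0.24, adjusted p = 0.165). Psme2 was 31.8%, 23.2% and 26.6% of Psme1 in the controls and 32.9%, 38.9% and 44.6% in the TuD libraries, which lay just above the controls. Psme2b is a copy of Psme2, and they can share reads, so the values of both and the ratio of Psme2 to Psme1 are uncertain for that reason. Psme2b measured 16.6, 20.6 and 27.2 against 25.1, 26.4 and 19.5, with overlapping groups.

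Psme3, the nuclear activator, measured 24.3, 26.7 and 21.9 normalised FPKM against 18.4, 19.1 and 20.1. All TuD libraries lay below the controls, and it missed the threshold narrowly (-0.33 ± 0.11, SE, adjusted p = 0.0513). Without TuD replicate 3 it passed (adjusted p = 0.0491). Psme4, the large single-chain activator, measured 24.8, 23.2 and 23.5 against 23.1, 18.7 and 26.2, and its groups overlapped (-0.08, adjusted p = 0.668). Psmf1, an inhibitor of the core in vitro, measured 4.52, 4.75 and 4.89 against 3.75, 3.88 and 4.69 and did not pass (-0.19, adjusted p = 0.254).

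Of the 7 dedicated assembly chaperones 1 rose and none fell, which is near the share of all tested genes that rose (15.0%). Among the 4 that build the core, Psmg4 rose, from 17.2, 18.5 and 19.4 normalised FPKM to 28.5, 35.1 and 25.1 (+0.66 ± 0.13, SE, adjusted p = 0.0104). Psmg1 measured 13.6, 13.3 and 13.2 against 16.1, 20.0 and 14.1 (+0.30, adjusted p = 0.120), and its partner Psmg2 measured 27.9, 23.0 and 28.4 against 33.1, 30.5 and 25.5 (+0.16, adjusted p = 0.382). Psmg3, the partner of Psmg4, measured 1.70, 1.49 and 1.65 against 1.86, 2.82 and 1.77 (+0.30, adjusted p = 0.202). The partners Psmg3 and Psmg4 thus differed in call but not in sign, and their difference was not tested. The median of the 4 was +0.30 (-0.04 after rescaling to TPM). None of the 3 base chaperones passed: Psmd10, also called gankyrin, measured 4.94, 4.69 and 4.87 against 5.58, 5.84 and 6.34 (+0.27, adjusted p = 0.0815), and Psmd5 and Psmd9 had log2 fold changes of -0.14 and +0.12. Psmc3ip, which the symbol rule also takes, is a recombination cofactor and not a proteasome gene; it measured 1.69, 0.640 and 1.07 against 1.41, 1.41 and 1.98 and did not pass.

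Gene length moved with these results. Across the 48 tested members the log2 fold change and log10 gene length had a Pearson correlation of -0.51 and a Spearman correlation of -0.39; across all 10460 tested genes these were -0.39 and -0.37. These are correlations across genes, which share the 6 libraries and are not independent replicates. Within the 14 core genes Pearson's value was -0.15, and within the 17 genes of the regulatory particle it was -0.69. The members that fell, Psmd1 and Psmd11, have lengths of 7265 and 6383 bases, and the median over the members is 2768 bases against 3852.5 over all tested genes. The shortest and the longest tested core genes, Psmb5 (899 bases) and Psmb1 (4595 bases), both rose.

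With the trend of level on length removed in each library, 14 members were higher, against 11.4% of all tested genes, and 3 were lower, against 12.7%. Of the 20 that rose 13 were among them, as were both that fell, and the median over the members went from +0.31 to +0.17. In the core 8 of 14 genes passed (median +0.39), in the ATPases 3 of 6, and in the lid 1 rose and 1 fell. The correction ended the calls of Psmb5 (+0.12, adjusted p = 0.369), Psmg4 (+0.14, 0.298), Psmc5 (+0.19, 0.112), Psma5 (+0.12, 0.342), Psma6 (+0.16, 0.263), Psma4 (+0.29, 0.0654) and Psmb8 (+0.52, 0.0602). Psmc2 and Psme3 passed under it (+0.38, adjusted p = 0.0396, and -0.36, adjusted p = 0.0403). Psmb6 (+0.57, 0.0124), Psmd4 (+0.61, 0.00585) and Psmd11 (-0.51, 0.00860) kept theirs. A correction for both length and GC content, chosen after seeing the data, left 10 higher and 4 lower members; among the calls it ended were those of Psma2 (+0.31, adjusted p = 0.121), Psma3 (+0.31, 0.0717) and Psmd14 (+0.11, 0.379). Why log2 fold change varied with length was not tested.

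**Figure D4:**
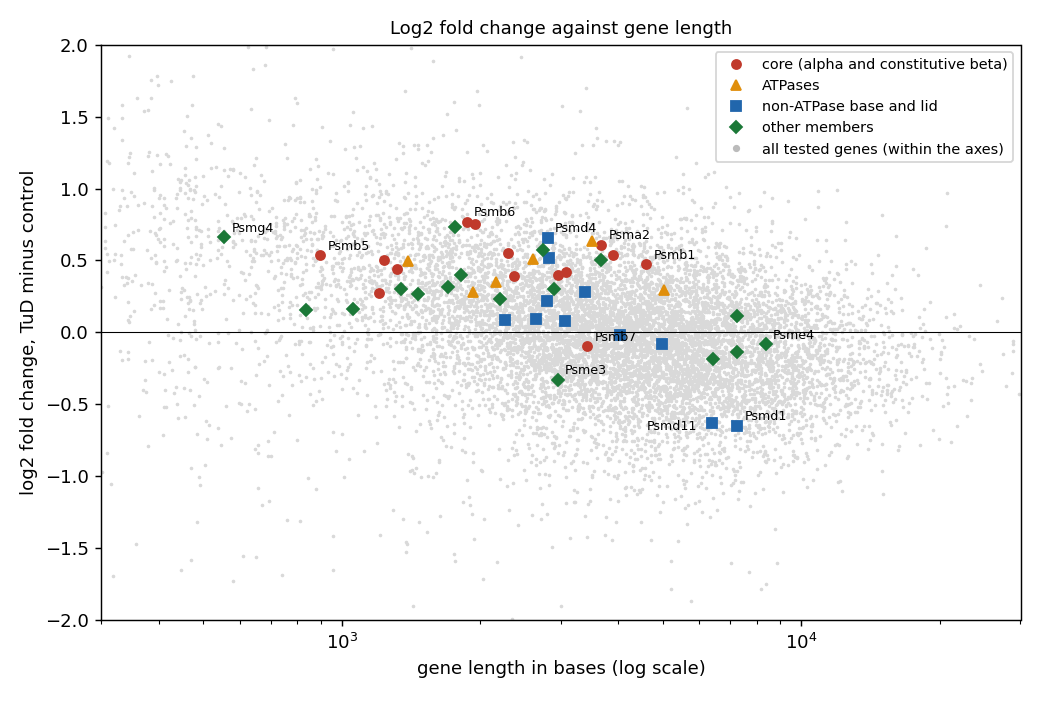
Log2 fold change (TuD minus control, vertical axis) against gene length in bases (log scale) for all tested genes that lie within the axes (small grey points) and for the 48 tested proteasome genes by class. Psmd1 and Psmd11, the members that fell, are among the longest members, while core genes (red circles) lie above 0 from 899 to 4595 bases with the exception of Psmb7 (and, after rescaling to TPM, of Psmb2).

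Of the other genes known to act with the proteasome, 21 cofactors and assembly factors were tested; 5 rose and 7 fell, where 15.0% and 14.3% of all tested genes did. The cofactor median was -0.19 (-0.12 after the length correction), against +0.30 (+0.16) for the members without Psmc3ip. The median gene lengths of these 2 sets were 4457 and 2800 bases. Sem1, a small lid subunit with another symbol, measured 23.7, 20.9 and 23.0 normalised FPKM against 39.7, 51.3 and 37.1 (+0.89 ± 0.14, SE, adjusted p = 0.00435). Uchl5, a deubiquitinase that sits on the base, measured 2.72, 3.43 and 3.37 against 5.27, 6.32 and 7.26 (+0.88, adjusted p = 0.00545). Pomp, the chaperone that completes the core, measured 15.2, 15.3 and 17.1 against 22.7, 25.8 and 23.6 (+0.59, adjusted p = 0.00634). These 3 genes kept their calls without each library in turn, with the length correction and with the Y-linked covariate. After rescaling to TPM Sem1 (+0.52, adjusted p = 0.0145) and Uchl5 (+0.57, 0.0369) kept theirs, while those of Pomp (+0.21, 0.221), Txnl1 (+0.10, 0.602) and Akirin2 (+0.03, 0.850) ended. Adrm1, the ubiquitin receptor that holds Uchl5, measured 23.1, 26.4 and 23.7 against 29.6, 30.8 and 22.3, with overlapping groups (+0.16, adjusted p = 0.403). Usp14, the other deubiquitinase of the base, measured 6.79, 8.36 and 7.64 against 5.85, 5.64 and 6.84 (-0.29, adjusted p = 0.103).

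The cofactors that fell include shuttle factors that carry ubiquitinated proteins to the proteasome. Ubqln4 measured 29.0, 35.1 and 27.7 normalised FPKM against 19.3, 16.1 and 18.3 (-0.75, adjusted p = 0.00560), and it kept its call without each library in turn. Nploc4, a cofactor of the unfolding ATPase Vcp, measured 22.1, 28.0 and 22.8 against 13.6, 15.5 and 18.3 (-0.61, adjusted p = 0.0165); its call ended without control replicate 2 (0.0613) and TuD replicate 1 (0.0539). The shuttle factors Rad23b and Ubqln1, the ubiquitin ligase Ube3c and Zfand2a also fell, with log2 fold changes from -0.54 to -0.40. Each of these 4 calls ended in at least 4 of the 6 fits that leave out 1 library. Txnl1 and Akirin2 rose (+0.48 and +0.41), and their calls ended in 5 and 4 of those fits. The length correction ended the calls of Rad23b (-0.33, adjusted p = 0.0623), Ube3c (-0.38, 0.0706) and Akirin2 (+0.18, 0.302). The Y-linked covariate ended those of Nploc4 (-0.39), Rad23b (-0.31), Ubqln1 (-0.30), Ube3c (-0.28) and Zfand2a (-0.19). It also ended those of Txnl1 (+0.31) and Akirin2 (+0.36), while Ubqln4 (-0.72) kept its call. All 7 that fell had every TuD library below every control, against 24.4% of all tested genes. They were called from these same values, so their separation adds no support.

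Among 8 genes that act on proteasome transcription 1 rose and 2 fell, where 15.0% and 14.3% of all tested genes did. Nfe2l1 measured 109, 111 and 101 normalised FPKM against 77.5, 65.6 and 82.2. It fell (-0.51 ± 0.12, SE, adjusted p = 0.0143), and its groups did not overlap. Nfe2l1 protein is regulated mainly by degradation and cleavage, which transcript levels do not show. Nfe2l2, which drives the oxidative stress response, measured 18.9, 23.8 and 21.4 against 13.8, 13.6 and 16.9 (-0.52, adjusted p = 0.0199). Ngly1, the enzyme that removes sugars from Nfe2l1 before it becomes active, measured 1.59, 1.68 and 1.75 against 2.36, 2.32 and 2.59 (+0.43, adjusted p = 0.0275). The call of Nfe2l1 ended without control replicate 2 (0.0579) and under the Y-linked covariate (-0.38, 0.124), and that of Ngly1 after rescaling to TPM (+0.13, 0.545). That of Nfe2l2 ended without control replicates 2 and 3 (0.0764 and 0.0652) and TuD replicates 1 and 2 (0.0644 and 0.0553), and that of Ngly1 without every library but TuD replicate 2 (0.0557 to 0.0781). The Y-linked covariate also ended the calls of Nfe2l2 (-0.33) and Ngly1 (+0.51).

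Of the 4 ubiquitin genes 3 rose, Rps27a and Ubb among them, and none fell, where 15.0% and 14.3% of all tested genes did. Rps27a, which encodes ubiquitin fused to a ribosomal protein and has processed copies that can share its reads, measured 24.0, 22.9 and 23.1 normalised FPKM against 72.9, 99.2 and 60.4 (+1.68 ± 0.17, SE, adjusted p = 0.00194). Ubb, a polyubiquitin gene, measured 250.5, 290 and 357 against 457, 526 and 431 (+0.67, adjusted p = 0.0162). The call of Ubb ended without control replicates 1 and 2 (0.0510 and 0.0592) and after rescaling to TPM (+0.28, 0.196), where Rps27a kept its own (+1.30, 0.00100). Under the Y-linked covariate the call of Ubb ended (+0.54) and that of Rps27a held (+1.35). Of the 10 genes of the COP9 signalosome, a complex built like the lid, 3 rose and none fell, where 15.0% and 14.3% of all tested genes did: Cops9 (+0.73, adjusted p = 0.00941), Cops2 (+0.52, 0.0198) and Cops6 (+0.39, 0.0353). The call of Cops9 held without each library in turn, that of Cops2 ended without control replicates 2 and 3 and TuD replicate 1 (0.0640 to 0.0753), and that of Cops6 ended without every library but TuD replicate 1 (0.0655 to 0.104). The Y-linked covariate ended all 3 calls (+0.58, +0.62 and +0.53 for Cops9, Cops2 and Cops6). All 3 ended after rescaling to TPM (+0.35, +0.16 and +0.01 for Cops9, Cops2 and Cops6; adjusted p = 0.0836, 0.423 and 0.974).

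Reads from overlapping genes cannot be told apart where strand was not used in counting, and the strand setting is not given in the sources used here. By coordinates 24 members overlap another gene, and 6 overlap one that passed the filter. Psmc3 (mean of 89.1 in the controls) overlaps Slc39a13 (6.85) on the other strand, and Psma2 (21.1) overlaps AW209491 (4.49) on the same strand. Psmb9 overlaps Tap1 on the other strand, at similar levels (2.82 and 3.14 in the controls), and Tap1 did not pass the test. For Psmc3 and Psma2 the overlapping gene stood at 5.78 and 3.47 in the TuD group, below its control level. Of 4 noncoding rows named after Psm genes 1 had reads, with at most 0.196 FPKM.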

How the data were processed

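Per the labels' protocols, total RNA from frozen hearts was made into libraries with NEBNext Ultra reagents. The submitters' processing notes name HISAT2 2.0.5, featureCounts 1.5.0-p3 and the build mm10. The deposited values are FPKM per gene, with gene lengths, for 6 libraries; depth was recovered from FPKM times length, which gave whole reads within 0.05 for over 99.9% of values above 0.

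Each library's FPKM was scaled by a median-of-ratios size factor (0.985 to 1.02) taken over 9191 genes with FPKM of at least 1 in all libraries. These factors were first computed over all genes above 0; the change was made after that result was seen, and both are reported. Genes with FPKM of at least 1 in at least 3 libraries were compared by a 2-group limma 3.58.1 model (R 4.3.3, trended eBayes) of log2 normalised FPKM with a pseudocount of 0.5. P-values were two-sided, adjusted by Benjamini-Hochberg across every tested gene, and called at 0.05. It was tested on simulated data. Length was corrected by lowess (span 0.3) in each library.

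Members and gene lists were chosen with earlier results of these data known. The named genes are up to 5 per class by p-value, those that fell, Psmb5 to Psmb10, Psme1, Psme2 and Psme4, up to 5 called genes per related list, and Pomp, Nfe2l1, Usp14 and Adrm1; the other members are named by range or count, and the ratios, Psma5, Psma6, Psmb2, Psmc1, Psmd2, Psmd5, Psmd9, Psmd12 and the further related genes were chosen after their values were seen. Python 3.11.15, numpy 2.4.6, pandas 2.3.3 and matplotlib 3.10.9 were used. Some genes of the related lists are not reported here.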

Additional observations from a re-analysis of the deposited data

How the results depend on the processing

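Counts of members (20 higher and 2 lower) stayed within 1.5 times under both pseudocounts, FPKM as deposited, quantile normalization, the filter at FPKM 5, protein-coding genes only, the other eBayes settings, limma-voom on recovered reads, the length correction alone (14 and 3) and, added after seeing the data, size factors from all genes above 0 (19 and 2). Rescaling to TPM gave 0 and 8, with a median of all genes of -0.36; no filter gave 14 and 1; the Y-linked covariate gave 4 and 1; and the length and GC correction gave 10 and 4. Leaving out 1 library gave 10 to 23 higher and 1 to 3 lower. The replicate block gave 20 and 2, the same genes, and with the length correction 11 and 1. Same-numbered libraries did not deviate together (correlations of 0.064, 0.088 and -0.055), so the numbers were not used as pairs. The cause of these shifts was not tested.

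Signs of log2 fold changes turned in 33 of 1191 recomputed values of named genes, all but B2m in genes that had not passed. TPM gave -0.066 for Psmb10, -0.090 for Psmc2, -0.037 for Psmc4, -0.093 for Psmd10, -0.15 for Psme1, -0.22 for Psme2b, -0.075 for Psmg1, -0.22 for Psmg2, -0.0046 for Psmg3 and -0.22 for Adrm1. The length correction, alone and with the replicate block, gave -0.019 for Psmd10, -0.27 for Psme2b, 0.070 for Psme4, -0.010 for Psmg1 and -0.22 for Psmg2. The length and GC correction gave -0.28 for Psmd10, -0.28 for Psme2b, -0.029 for Psmg1, -0.36 for Psmg2 and -0.15 for B2m. The Y-linked covariate gave 0.12 for Psmb7, -0.10 for Psme2b, 0.14 for Psme4, -0.045 for Psmg2 and -0.12 for Adrm1. Leaving out a library moved Psmb7 between -0.20 and 0.016, Psme2b between -0.0077 and 0.34 and Psme4 between -0.19 and 0.047, turning the sign without TuD replicate 1, control replicate 1 and TuD replicate 2. Of the other values 963 kept side and direction, 175 lost the threshold and 20 gained it. Psmc3ip, Psmg3 and Psmd10 rest on the fewest reads of the tested members (23, 82 and 124 in their lowest library).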
